A study of Mus musculus with 7 samples.

Results

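The peaks described here are 1298 H3K18La peaks that lie away from promoters and that were selected on their P4 and P28 levels. H3K18La is histone H3 with a lactyl group on lysine 18. Its genomic location was measured by CUT&Tag, in which an antibody directs an enzyme that tags nearby DNA, in dissociated retinas of C57Bl/6J mice at P4, P10 and P28 (postnatal days 4, 10 and 28). P4 and P10 were each represented by 2 libraries and P28 by 3. All came from whole retina with no treatment named in the labels, so a change in the share of a cell type and a change within its cells cannot be told apart. The labels put P28 replicate 1 in batch 2 and the other 6 libraries in batch 1. Replicates are called biological in the methods, but the labels tie no library to an animal, and the p-values below measure only the spread between these libraries. Of 108253 merged peaks, 80977 were annotated as Intron or Distal Intergenic, and 1298 of these (1.60%) had 12 RPKM or more in each P28 library and 2.5 RPKM or less in both P4 libraries. RPKM is a read count scaled to peak width and to the normalized size of the library. P4 and P28 values were therefore chosen by the rule and are given as a description, whereas P10 took no part in it.

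Histone lactylation uses lactate, which the retina produces in large amounts because photoreceptors ferment glucose even when oxygen is present. In the mouse, rods are born around birth and mature over the following weeks, when they build outer segments, connecting cilia and ribbon synapses. Distal and intronic elements that carry active histone marks in photoreceptors are commonly bound by homeodomain factors such as CRX and OTX2, whose core recognition sequence is TAATCC. Other retinal factors recognise different short sequences, such as the NRL core TGCTGA.

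The sequence at the middle of the selected peaks was read from the GRCm38 genome. TAATCC, on either strand, occurred in the central 300 bases of 313 of the 1298 peaks (24.1%) and of 10082 of all 80977 intron and distal intergenic peaks (12.5%). Some TAATCC copies lie in interspersed repeats, which the genome file marks as soft-masked. With matches outside soft-masked bases only, a setting added after the data were seen, the shares were 20.8% of the selected peaks and 9.98% of all intron and distal intergenic peaks. A useful comparison is the 1801 intron and distal intergenic peaks that also had 12 RPKM or more in each P28 library but exceeded 2.5 RPKM in a P4 library. Their median P28 levels were higher, at 18.5, 22.2 and 25.7 RPKM against 15.6, 19.1 and 21.7 RPKM in the selected peaks. In the 1801 peaks, the share outside soft-masked bases was 17.6%. The difference between these shares was not tested, and a match is a description of the letters, not of a bound site.

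Of the 41 selected peaks nearest a photoreceptor-list gene that could be printed, 12 held TAATCC in the central 300 bases, and 11 of them did so outside soft-masked bases. The highest of these at P28 lay 4133 bases upstream of the start site of Casz1, a zinc-finger transcription factor of retinal progenitors and rods. Its central 300 bases held 2 matches, of which 1 was soft-masked.

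The other 11 peaks are shown by 30 bases around the first match, plus strand, with TAATCC or its complement GGATTA in capitals, to show how the core sits in different flanks near genes of rods, cilia and synapses. Of these matches only the Esrrb one at chr12:86516851-86516880 was soft-masked.
Unc13b, chr4:43082361-43082390: tctgtgtgaataGGATTAtttcctataatc
Esrrb, chr12:86553542-86553571: gagatactgctgGGATTAagactgtggaat
Esrrb, chr12:86516851-86516880: cttttccttctgTAATCCtcttccactccc
Ttc8, chr12:98931416-98931445: ggcactgcagagGGATTAgcgtgcttaaga
Esrrb, chr12:86503922-86503951: cctcctgcttgtTAATCCtttactcaggtt
Guca1a, chr17:47399259-47399288: ctttagttcccgTAATCCgattgggcctct
Stx3, chr19:11813857-11813886: taaaaacaaagtTAATCCccttctctggtc
Prdm1, chr10:44536376-44536405: ctaaggagctccTAATCCctgcctcagagt
Prom1, chr5:44096474-44096503: tgaatgcctgtcTAATCCcttcagatattg
Tub, chr7:109015268-109015297: gatagtaacagtGGATTAgctggagattac
Ttll5, chr12:85840781-85840810: tactcaggtgaaGGATTActcccaaggtgg

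The selected peak with the highest P28 mean, in the first intron of Sntg2, had no TAATCC in its central 300 bases, which are shown because the peak leads the set.
Sntg2, chr12:30369866-30370165: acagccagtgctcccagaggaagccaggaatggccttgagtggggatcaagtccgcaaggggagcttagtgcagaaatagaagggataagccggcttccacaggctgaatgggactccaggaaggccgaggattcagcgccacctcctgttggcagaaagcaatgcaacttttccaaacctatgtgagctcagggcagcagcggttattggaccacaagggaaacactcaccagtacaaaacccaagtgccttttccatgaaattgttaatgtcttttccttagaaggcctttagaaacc

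The other 5 short motifs searched, each on both strands and counted on its own even where matches overlap, were TGCTGA (NRL and MAF core), AGGTCA (nuclear receptors), CAGATG (an E-box that NEUROD1 can bind), GGGCGG (SP and KLF factors) and CTAAAA (part of the MEF2 site). Outside soft-masked bases they occurred in 23.9%, 23.3%, 23.8%, 6.63% and 12.8% of the selected peaks. The corresponding shares of all intron and distal intergenic peaks were 22.6%, 19.1%, 23.3%, 4.32% and 10.5%. TAATCC thus had the widest gap of the 6 between the selected peaks and all intron and distal intergenic peaks. Against the 1801 peaks also high at P28, which of the motifs had the wider gap depended on the setting. With all matches counted, the shares were 24.1% against 19.5% for TAATCC and 14.3% against 10.9% for CTAAAA, and outside soft-masked bases they were 20.8% against 17.6% and 12.8% against 9.22%. The median GC content was 48.7% in the selected peaks and 48.5% in the others, and the median soft-masked share was 12.4% and 11.5%. In the 1801 peaks also high at P28 these medians were 50.5% and 10.4%.

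**Figure D1:**
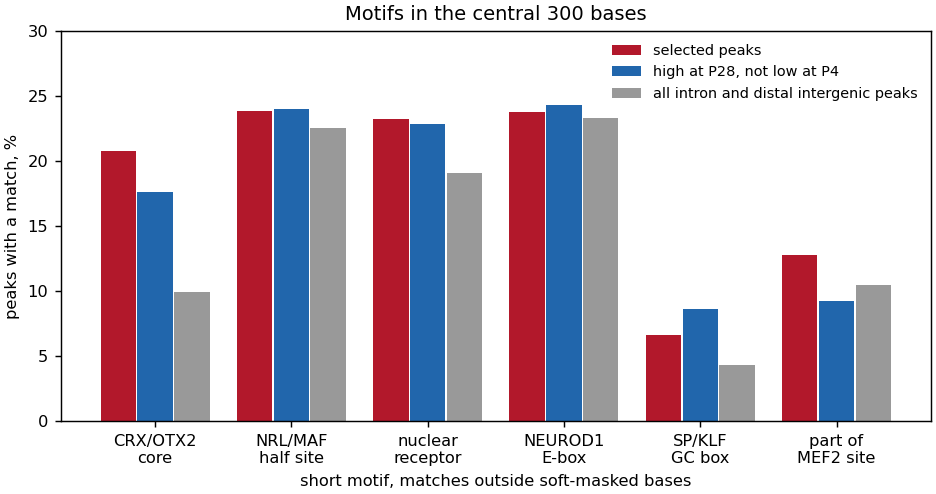
Percentage of peaks with each short motif in the central 300 bases, on either strand and outside soft-masked bases, for the selected peaks, the peaks also high at P28 but not low at P4, and all intron and distal intergenic peaks. The CRX/OTX2 core reached 20.8%, 17.6% and 9.98% in the 3 sets, while the NRL/MAF core reached 23.9%, 24.0% and 22.6%.

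H3K18La at the selected peaks was mostly above its P4 level at P10, the age that took no part in the selection. The median level of the 1298 peaks was 8.22 and 12.1 RPKM in the P10 libraries. It was 1.02 and 1.27 RPKM at P4 and 15.6, 19.1 and 21.7 RPKM at P28. Over all intron and distal intergenic peaks the P10 medians were 1.11 and 2.22 RPKM. In the 1801 peaks also high at P28 but not low at P4 they were higher, at 17.7 and 26.1 RPKM. The P4 levels of the selected peaks were chosen to be low, which favours a higher P10 level. The selected peaks took up 1.07% and 1.14% of the reads in peaks at P4, 4.35% and 4.15% at P10, and 6.31%, 6.14% and 6.27% at P28. The low share at P4 and the high share at P28 follow from the selection, and the P10 share lay between them.

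**Figure D2:**
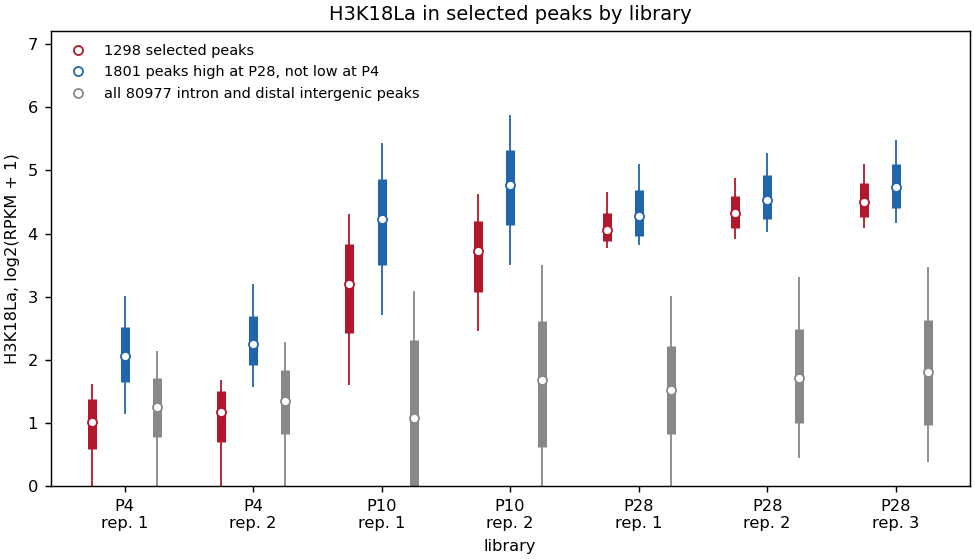
H3K18La as log2(RPKM + 1) in each of the 7 libraries for the selected peaks, the peaks also high at P28 but not low at P4, and all intron and distal intergenic peaks. Circles are medians, thick bars the middle 50% and thin lines the 10th to 90th percentiles; the medians of the selected peaks at P10, 8.22 and 12.1 RPKM, lie between those at P4 and P28.

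The position of each peak at P10 between its P4 level (0%) and its P28 level (100%) was computed on the log2(RPKM + 1) scale. The median position was 66.2% in P10 replicate 1 and 80.7% in P10 replicate 2, and 71.8% with both. The middle 50% of the peaks, by both libraries, lay between 55.8% and 86.8%. Without the log the median with both libraries was 49.2%. The libraries were not placed separately without the log, and their median levels differed, at 8.22 and 12.1 RPKM. Both ends of this scale were used for the selection, so the position is a description.

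**Figure D3:**
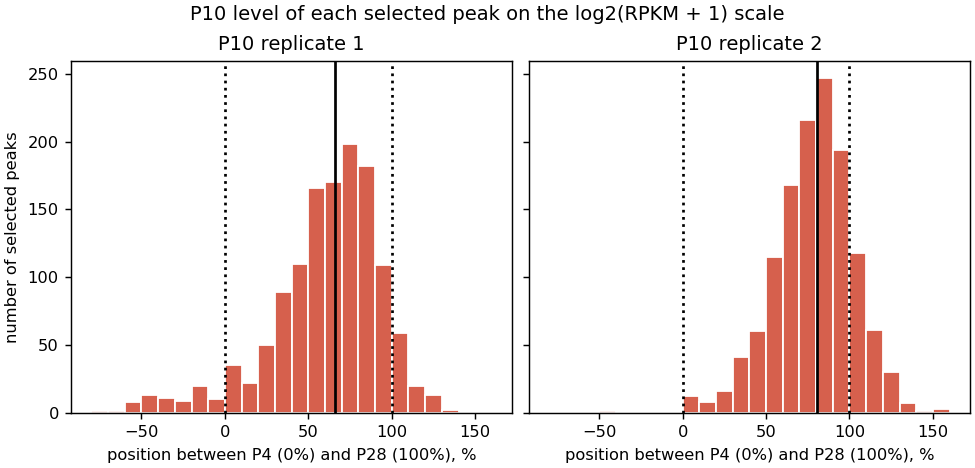
Histogram of the P10 position of the 1298 selected peaks between their P4 level (0%) and P28 level (100%) on the log2(RPKM + 1) scale, 1 panel per P10 library, with the median as a solid line. The medians are 66.2% and 80.7%; 73 peaks lie below 0% in replicate 1 and 1 in replicate 2.

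Both P10 libraries exceeded both P4 libraries in 1189 of the 1298 selected peaks (91.6%), against 36.1% of all peaks. The share was much the same, 93.2% (1679 peaks), among the 1801 peaks also high at P28 but not low at P4. Both P10 libraries lay below every P28 library in 884 of the selected peaks (68.1%), against 32.2% of all peaks. In 784 selected peaks (60.4%) both patterns held, so that the 3 ages were in order with no overlap. They were so in 5.89% of all intron and distal intergenic peaks and 21.9% of the 1801 peaks also high at P28 but not low at P4. These counts share their P4 or P28 values with the rule and test nothing. Of those 1801 peaks, 479 (26.6%) had both P10 libraries below every P28 library.

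In limma, fitted on log2(RPKM + 1) over all 108253 peaks with Benjamini-Hochberg adjustment, 1006 selected peaks (77.5%) were higher at P10 than at P4 at an adjusted p under 0.01, and 0 were lower. Over all peaks 12320 were higher, which is 11.4%, and 7944 were lower. The P4 side of this comparison was selected to be low, which favours a rise, so the count is a description. Among the 1801 peaks also high at P28 but not low at P4, 1404 (78.0%) were called higher at P10. The share was thus much the same in that set, although its median P28 levels were also higher. The median log2 change was 2.41 over the selected peaks and 0.23 over all peaks. With the libraries scaled to their reads in peaks the medians were 1.56 and -0.51, and the calls over all peaks became 4745 higher and 17419 lower. With an unadjusted p under 0.05, 1173 selected peaks were higher and 1 was lower, beside 29793 higher and 17845 lower of all 108253. By voom on the recovered reads 1033 were higher and 0 were lower, beside 15709 higher and 100 lower of all peaks. Scaled to reads in peaks, 648 selected peaks were higher and 1 was lower. As deposited, the count of 1006 was 460 without P4 replicate 1 and 493 without P4 replicate 2. Over all peaks these 2 fits called 2799 and 3188 higher, and 2681 and 2275 lower.

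Between P10 and P28 the P28 side was selected to be high, which favours a rise, so these counts too are a description. Only 1 selected peak passed the same threshold, against 2 of all peaks (0.00185%), both higher at P28. At an adjusted p under 0.05, 422 selected peaks (32.5%) were higher at P28 and 1 was lower, against 10.1% of all peaks higher. Nearly all of these calls were lost with a block for the replicate number. The block left 3 selected peaks higher and 0 lower, beside 9 higher and 22 lower of all peaks. Only P28 has a replicate 3, so the block also takes that library out of the comparison of ages. The median log2 change of the selected peaks was 0.84 both with the block and without P28 replicate 3. Scaled to reads in peaks, 256 selected peaks were higher and 8 lower at that threshold, beside 4591 higher and 2912 lower of all peaks. With 1 library left out, the count of 422 ranged from 58 without P28 replicate 2 to 702 without P10 replicate 2. It was 68 without P28 replicate 3 and 146 without P28 replicate 1. In the same fits 1901, 32656, 2540 and 4158 of all peaks were higher. The count at 0.01 depended on the P10 libraries, with 54 calls without P10 replicate 1 and 428 without P10 replicate 2. Over all peaks the first of these fits called 701 higher and 399 lower, and the second 14054 higher and 2453 lower. The selected count also depended on the model, with 221 higher and 2 lower by voom, which called 2346 higher and 6594 lower over all peaks. It was 0 with the replicate block, and without any 1 of the P4 or P28 libraries.

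The libraries differed in depth and in the share of reads in peaks, and both touch these levels. Reads in peaks came to 16.3% and 17.6% of the normalized library at P4, 36.1% and 52.1% at P10, and 42.4% to 57.1% at P28. Scaling to the reads in peaks brought the median level of the selected peaks to 2.21 and 2.53 RPKM at P4, 8.01 and 8.19 at P10, and 12.9, 13.2 and 13.4 at P28. On that scale 189 peaks met both thresholds, all of them among the 1298. The ratio of the summed P28 mean to the summed P4 mean over the 1298 peaks was 18.3 as deposited and 6.19 after scaling. The median number of reads per selected peak was 2 in each P4 library, 5 and 15.5 at P10, and 66, 336 and 137.5 at P28. Both P4 libraries had 3 reads or fewer in 796 of the peaks, so a P4 level is often not distinguishable from 0 at this depth. At the median width of 1041.5 bases, 3 reads amount to 1.31 RPKM in P4 replicate 1 and to 1.72 RPKM in P4 replicate 2. P28 replicate 1 had the lowest of the 3 P28 values in 1093 selected peaks (84.2%). The share was 85.3% in the 1801 peaks also high at P28 and 62.2% in all intron and distal intergenic peaks. Without P28 replicate 1, the batch 2 library, 2219 peaks met the thresholds, with P10 medians of 6.98 and 10.5 RPKM.

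The rule was also applied with each library in turn kept aside. Of the 1336 peaks chosen without P28 replicate 2, 97.2% reached 12 RPKM in it, against 6.12% of all intron and distal intergenic peaks. For P28 replicate 3 the share was 99.5% against 7.63%, and for P28 replicate 1 it was 58.5% against 3.95%. Of the 1579 peaks chosen without P4 replicate 1, 82.2% stayed at or below 2.5 RPKM in it, against 78.8% of all intron and distal intergenic peaks, and for P4 replicate 2 the shares were 70.0% and 73.4%. A P4 level within the limit was thus the usual state of intron and distal intergenic peaks. Such low levels were also common at P28, in 61.03%, 53.28% and 50.03% of these peaks in replicates 1, 2 and 3. The limits of 2.5 and 12 RPKM differ, so the shares do not compare the ages. P28 replicate 1 was the lowest P28 library in 84.2% of the selected peaks. The high shares for P28 replicates 2 and 3 therefore follow largely from the limit in replicate 1.

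The 3 peaks nearest each threshold on either side were as follows. The 3 members with the lowest P28 value, nearest Lefty2, Tob1 and Got1, had 12.001, 12.005 and 12.005 RPKM in their lowest P28 library. The 3 peaks just outside, nearest Gm28477, Dpf3 and Traf3ip3, had 11.997, 11.996 and 11.99 RPKM. At the P4 edge, the members nearest Ttc17, Mir1945 and Rprd1b had a highest P4 value of 2.4993, 2.499 and 2.4989 RPKM, and the peaks nearest Slc4a5, Fam78a and B230220B15Rik, just outside, had 2.502, 2.5034 and 2.5068 RPKM. With the P4 limit met, 302 peaks had a lowest P28 value from 11 to 12 RPKM.

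Of the 1298 selected peaks, 881 (67.9%) lay in introns and 417 (32.1%) were distal intergenic. By comparison, 56.0% of the other 79679 intron and distal intergenic peaks and 62.9% of the 1801 peaks also high at P28 were intronic. Of the 881, 428 (48.6%) lay in a first intron, against 37.1% of the other intron peaks and 43.5% of those among the 1801. The median distance to the nearest start site was 22312 bases, against 36219 bases for the others and 27890 bases for the 1801 peaks also high at P28. Within 10 kb of a start site lay 392 peaks (30.2%), against 19.3% of the others and 25.5% of the 1801. Their median width was 1041.5 bases, against 690 bases for the others and 1095 bases for the 1801 peaks. None of these differences was tested, and width enters the choice because a narrow peak needs fewer reads to reach 12 RPKM.

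The nearest gene is the one with the closest start site in the deposited annotation, which does not show that a peak acts on it. The 1298 peaks had 937 nearest genes, of which 720 had 1 selected peak, 140 had 2 and 77 had 3 or more. Of the selected peaks, 447 (34.4%) lay within 12.5 kb of another selected peak, in 188 runs, of which 51 held 3 or more. The longest run held 7 peaks over 36.6 kb in the introns of Foxo3, a forkhead transcription factor downstream of insulin signalling, at chr10:42220508-42257074.

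Foxo3 had 8 selected peaks of its 28 intron and distal intergenic peaks, all in introns. The highest, 36431 bases from the start site, had 1.31 and 1.72 RPKM at P4, 14.3 and 18.8 at P10 and 32.0, 33.1 and 35.1 at P28. Mean P10 levels of the 8 ran from 3.65 to 16.5 RPKM and mean P28 levels from 13.8 to 33.4 RPKM. The low P4 level of the Foxo3 peaks was set by the rule. Their P10 positions ran from 44.5% to 90.5%, inside the 10th to 90th percentiles of all selected peaks (36.6% to 97.7%). Differences between these peaks were not tested.

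Casz1 also had 8, of 36 such peaks, 5 in its second intron and 3 upstream of the gene over 81.4 kb in all. Its P10 means ran from 5.95 to 22.5 RPKM and its P28 means from 16.4 to 32.1 RPKM. Fgfr2, a fibroblast growth factor receptor, had 8 of 175, but the annotated gene model spans several megabases and the 8 peaks lie 90323 to 2885328 bases from its start site.

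Slc44a1, a choline transporter, and Gse1 had 7 selected peaks each. Galnt10, a glycosyltransferase that starts mucin-type O-glycans, and Med13l, a subunit of the Mediator kinase module, had 6 each. The highest Galnt10 peak had 1.56 and 2.04 RPKM at P4, 24.7 and 32.4 at P10 and 28.8, 44.4 and 65.1 at P28. The highest Med13l peak had 1.46 and 0 RPKM at P4, 7.26 and 10.1 at P10 and 36.1, 45.5 and 47.1 at P28. At the Galnt10 peak the P10 and P28 ranges thus overlapped, whereas at the Med13l peak P10 was far below all 3 P28 libraries. Lrig1, Tbc1d8, Nectin1, Pitpnm2, Ctif, Tub, Eri3 and Fhod3 had 5 selected peaks each. The 5 Lrig1 peaks lay within 14.3 kb and the 5 Nectin1 peaks within 11.2 kb.

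**Figure D4:**
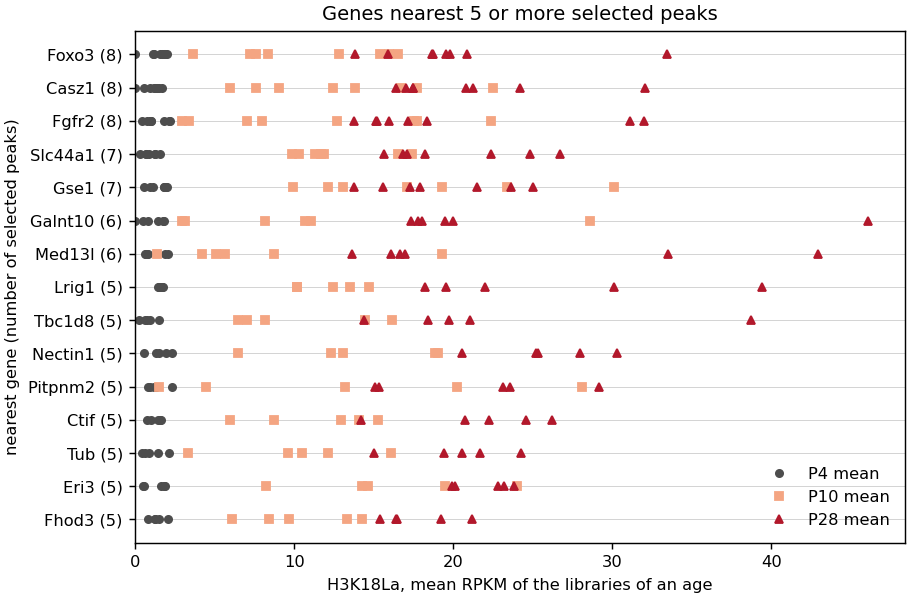
Mean H3K18La in RPKM at P4, P10 and P28 for each selected peak of the 15 genes nearest to 5 or more of them, with the number of peaks after each gene. All P4 means lie at or below 2.5 RPKM by the rule, and the P10 means spread from 1.38 RPKM (Med13l) to 30.1 RPKM (Gse1).

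The 10 highest selected peaks at P28 had means from 47.4 to 57.9 RPKM. Sntg2, which encodes a syntrophin of the dystrophin complex, led them (chr12:30369781-30370250, 3078 bases into the gene). Its peak had 0.967 and 1.27 RPKM at P4, 11.5 and 16.8 at P10 and 42.4, 61.6 and 69.8 at P28, so that the ages did not overlap. The P10 libraries held 3 and 10 reads there, so the lower P10 value rests on few reads. Hpcal1, a neuronal calcium sensor, followed with 0.556 and 1.46 RPKM at P4, 61.9 and 69.5 at P10 and 45.9, 59.3 and 61.3 at P28 (chr12:17718787-17719603, intron 1). Here both P10 libraries were above every P28 library. Slc12a8, a member of the cation-chloride cotransporter family, had 0.73 and 1.92 RPKM at P4, 31.9 and 36.8 at P10 and 44.7, 52.3 and 61.1 at P28.

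Nln encodes neurolysin, a peptidase that cleaves neuropeptides. Its intronic peak had 0 and 1.53 RPKM at P4, 25.5 and 30.4 at P10 and 38.8, 52.9 and 60.4 at P28. The peak 3928 bases upstream of Klhl36, a Kelch-like gene, had 0 and 2.34 RPKM at P4, 30.03 and 36.3 at P10 and 47.7, 48.6 and 54.8 at P28. The peak 8604 bases upstream of Sde2, which acts in the response to replication stress, had 1.06 and 2.08 RPKM at P4, 35.7 and 52.3 at P10 and 40.9, 45.9 and 55.3 at P28. In the first 2 of these, P10 lay below all P28 libraries, and in Sde2 the ranges of P10 and P28 overlapped.

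The remaining 4 of the 10 were distal intergenic peaks nearest Gm8996, Gm23502, Gm39115 and 4930555M17Rik. Their P28 means were 51.9 ± 3.13, 51.0 ± 2.57, 48.9 ± 4.78 and 47.4 ± 6.00 RPKM (SD, n = 3), and their P10 means were 17.9 ± 3.8, 27.1 ± 2.59, 27.8 ± 5.94 and 15.2 ± 2.88 RPKM (SD, n = 2). All 10 had a P4 mean within the limit of the rule and a P10 mean above it.

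The selected peaks differed widely in their P10 level. Both P10 libraries were at 12 RPKM or more in 344 peaks (26.5%), and both were at 2.5 RPKM or less in 21 (1.62%). Of the 1801 peaks also high at P28 but not low at P4, whose P28 medians were higher, 66.6% had both at 12 RPKM or more. In 40 peaks (3.08%) both P10 libraries lay above every P28 library, against 16.3% of all intron and distal intergenic peaks and 22.3% of those 1801. Besides Hpcal1, the 5 highest at P10 were those of Epb41, Xxylt1, Rsph14 and Sde2. Epb41 encodes protein 4.1 of the membrane skeleton, and its peak had 1.84 and 2.42 RPKM at P4, 53.1 and 55.2 at P10 and 24.7, 36.1 and 36.6 at P28. The peak in Xxylt1, a xylosyltransferase gene, had 2.26 and 1.78 RPKM at P4, 47.5 and 55.2 at P10 and 36.0, 32.7 and 37.4 at P28. That in Rsph14, a radial spoke gene of motile cilia, had 1.57 and 2.06 RPKM at P4, 37.4 and 51.7 at P10 and 17.2, 26.4 and 25.4 at P28. In these 3 the P10 libraries exceeded all P28 libraries, but limma did not call the decrease, with Benjamini-Hochberg adjusted p-values of 0.0906, 0.163 and 0.0613 and log2 changes of -0.74, -0.53 and -0.93.

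At the other end, 3 peaks had no read in any P4 or P10 library. The peak 4855 bases upstream of Gm33167 (chr5:67122277-67122648) had 0 reads at P4 and P10 and 38.1, 35.2 and 44.1 RPKM at P28. It was the 1 selected peak that limma called between P10 and P28, with a Benjamini-Hochberg adjusted p of 0.00207, which rests on P28 values selected to be high and is given as a description. Against a floor of 3 reads over both P10 libraries, 4.43 RPKM at this width of 372 bases, it was at least 8.84-fold higher at P28. The call was lost with a pseudocount of 0.5, with the replicate block or without any 1 of the P4 or P28 libraries. Of the bases of this peak, 49.5% were soft-masked. The peak nearest Ermard had 14.4, 19.3 and 17.0 RPKM at P28, and that nearest Cipc, whose product binds the circadian factor CLOCK, had 13.3, 14.1 and 14.6 RPKM. These lie at least 7.10-fold and at least 2.52-fold above the same floor. The other 2 of the 5 lowest were the peak nearest Ttc39c, with 1.53 and 1.01 RPKM at P4, 0 and 0 at P10 and 13.7, 14.8 and 19.8 at P28, and that nearest Hps3, a gene of lysosome-related organelles, with 0.53 and 0.695, 0 and 0.919, and 12.8, 16.6 and 20.7 RPKM. In 92 selected peaks both P10 libraries had 3 reads or fewer, so a low P10 level often rests on few reads. The central 300 bases of the Gm33167 peak, plus strand with TAATCC in capitals, are shown because it had the highest P28 level of the 3 peaks with no read at P4 or P10.
Gm33167, chr5:67122313-67122612: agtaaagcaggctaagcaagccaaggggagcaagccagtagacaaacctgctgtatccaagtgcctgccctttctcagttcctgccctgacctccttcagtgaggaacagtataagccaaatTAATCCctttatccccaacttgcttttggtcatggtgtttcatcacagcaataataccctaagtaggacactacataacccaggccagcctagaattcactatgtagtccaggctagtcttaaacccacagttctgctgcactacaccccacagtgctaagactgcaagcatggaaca

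The peaks were also split into 3 groups of nearly equal size by their mean P10 level. The lowest group had up to 7.60 RPKM at P10 (median 5.12) and the highest 13.2 RPKM or more (median 17.7). TAATCC outside soft-masked bases occurred in 25.2% of the lowest, 18.1% of the middle and 19.2% of the highest group. A photoreceptor-list gene was nearest to 8 of 433, 17 of 432 and 17 of 433 peaks. The median width was 907, 1048.5 and 1198 bases, and the median P28 level 16.9, 18.8 and 21.2 RPKM. The groups thus differed in width and in P28 level as well, and none of these differences was tested.

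Photoreceptor genes were few in number and came from 4 of the 5 photoreceptor lists, those of the rod outer segment, transcription factors, the cilium and the ribbon synapse. The 5 photoreceptor lists held 138 genes, of which 111 were nearest to an intron or distal intergenic peak and 24 to a selected one. They accounted for 42 of the 1298 peaks (3.24%), against 1.36% of all intron and distal intergenic peaks and 3.61% of the 1801 peaks also high at P28. By list, the shares of the selected and of all intron and distal intergenic peaks were 0.616% and 0.219% for rod phototransduction and outer segment genes, 1.16% and 0.321% for transcription factors, and 1.23% and 0.477% for cilium genes. They were 0.231% and 0.315% for ribbon synapse genes. That list had only 3 selected peaks, so its lower share is no result about it. The lists were chosen with earlier results of these data known, and the shares were not tested. The median levels of the 42 peaks were 1.02 RPKM at P4, 12.3 at P10 and 20.7 at P28, close to those of all 1298. In limma 32 of the 42 were called higher at P10 than at P4, beside 77.5% of all 1298, and both counts rest on P4 values selected to be low.

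**Figure D5:**
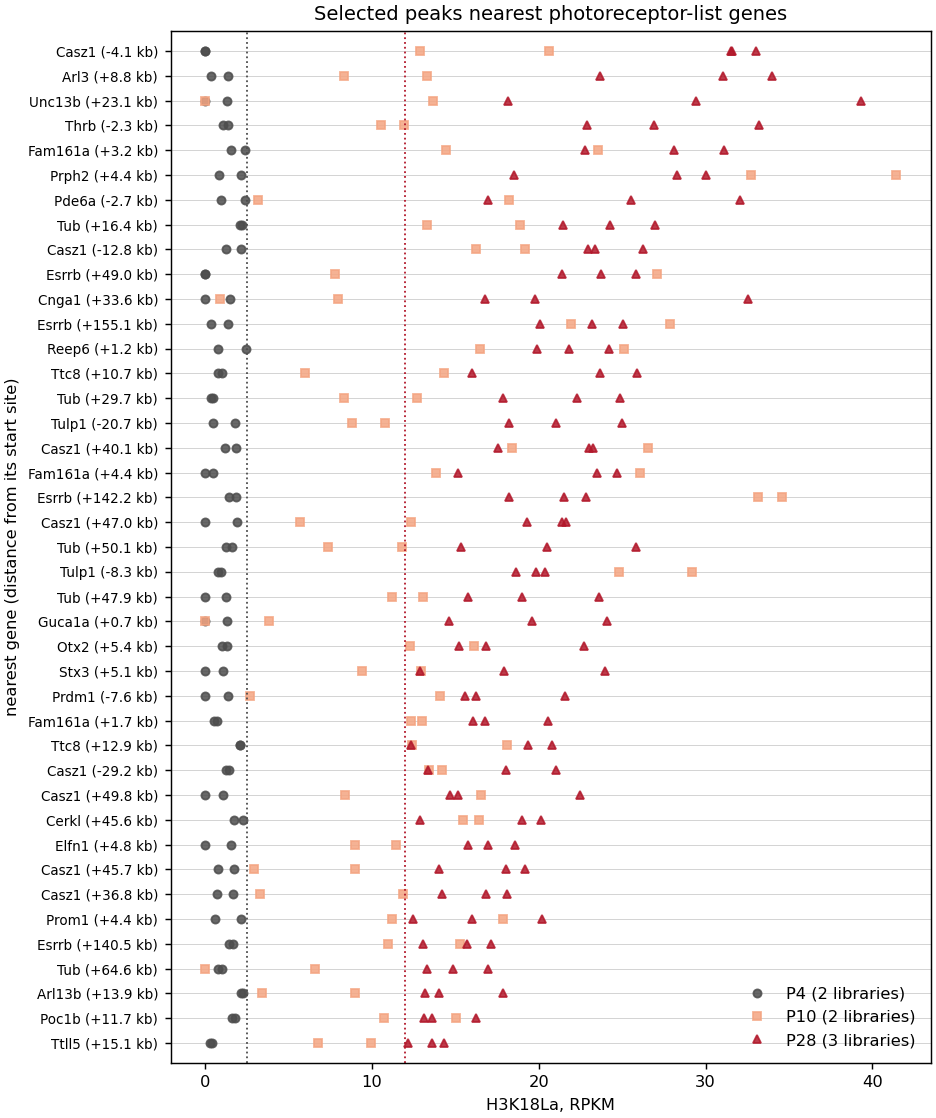
H3K18La in RPKM in each library for 41 of the 42 selected peaks whose nearest gene is in a photoreceptor list, sorted by P28 mean, with the distance to the start site in kb. Dotted lines mark the limits of 2.5 RPKM (P4) and 12 RPKM (P28); the P10 libraries lie between 0 and 41.4 RPKM, and in Prph2 and in a peak each of Esrrb and Tulp1 both exceed every P28 library.

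Among genes of rod phototransduction and the outer segment, 7 of 31 genes with an intron or distal intergenic peak had 8 selected peaks. Prph2 encodes peripherin 2, which shapes the disc rim. Its peak in intron 1 (chr17:46914896-46915447) had 0.823 and 2.16 RPKM at P4, 32.7 and 41.4 at P10 and 18.5, 28.3 and 30.04 at P28, with both P10 libraries above every P28 library. Pde6a encodes a catalytic subunit of the rod phosphodiesterase, and the peak 2698 bases upstream of it had 0.916 and 2.41 RPKM at P4, 18.2 and 3.18 at P10 and 16.9, 25.5 and 32.0 at P28. The 2 P10 libraries held 5 and 2 reads there, and P10 cannot be placed between the other ages.

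Cnga1 encodes a subunit of the rod cyclic-nucleotide-gated channel. Its peak, 33636 bases from the start site, had 1.5 and 0 RPKM at P4, 7.95 and 0.868 at P10 and 16.8, 19.8 and 32.5 at P28. Guca1a encodes a calcium sensor that activates retinal guanylate cyclase, and its peak in intron 1 (chr17:47398816-47399855) had 1.31 and 0 RPKM at P4, 0 and 3.79 at P10 and 14.6, 19.6 and 24.1 at P28. All P10 values lay under the lowest P28 value, but the P10 libraries held 4 and 1 reads at Cnga1 and 0 and 5 at Guca1a, too few to place P10 between the other ages. Reep6, which serves membrane trafficking in rods, had 0.79 and 2.42 RPKM at P4, 25.1 and 16.4 at P10 and 19.9, 21.8 and 24.2 at P28. The peak in Prom1, a disc morphogenesis gene, had 0.604 and 2.12, 11.2 and 17.8, and 12.4, 16.0 and 20.2 RPKM at the 3 ages. In these the P10 and P28 ranges overlapped. Tulp1, a gene for protein transport to the outer segment, had 2 peaks. The one 8290 bases upstream had P10 values of 29.2 and 24.8 RPKM, above its P28 values of 18.6, 19.8 and 20.4 RPKM, and the one 20700 bases upstream had 8.82 and 10.8 RPKM at P10, below its P28 values of 18.2, 21.0 and 24.99 RPKM. Neither change from P10 to P28 was called by limma (adjusted p of 0.268 and 0.0688), and the difference between these peaks was not tested. None of 10 cone phototransduction genes with an intron or distal intergenic peak was nearest to a selected peak. These genes had 25 such peaks in all, and with 1.60% of all 80977 peaks of this kind selected, a count of 0 is no result about them.

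Photoreceptor transcription factors contributed 15 peaks of 5 genes, of 16 with an intron or distal intergenic peak. Of these, 8 belonged to Casz1 and 4 to Esrrb, and Thrb, Otx2 and Prdm1 had 1 each. The Casz1 peak 4133 bases upstream (chr4:148799876-148800296) had 0 and 0 RPKM at P4, 12.9 and 20.6 at P10 and 33.0, 31.5 and 31.6 at P28. The one 12816 bases upstream had 1.23 and 2.15, 16.2 and 19.1, and 23.4, 22.9 and 26.2 RPKM. In both, the 3 ages were in order without overlap. The P10 libraries held 3 and 11 reads at the first of these peaks and 10 and 27 at the second. The lower P10 value of the first thus rests on few reads.

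Esrrb encodes a nuclear receptor that rods need to survive. Its 4 peaks lay 48970 to 155109 bases from the start site used. The highest (chr12:86553379-86553611) had 0 and 0 RPKM at P4, 7.75 and 27.1 at P10 and 21.4, 25.9 and 23.7 at P28, on 1 and 8 reads at P10. The one at 142213 bases had 1.39 and 1.83, 33.2 and 34.6, and 18.2, 22.8 and 21.5 RPKM, with P10 above P28. Thrb encodes a thyroid hormone receptor that directs cone opsin choice. The peak 2333 bases upstream of a Thrb start site (chr14:17657070-17657928) had 1.06 and 1.39 RPKM at P4, 10.5 and 11.9 at P10 and 22.9, 26.9 and 33.2 at P28. Otx2, the homeodomain factor that starts the photoreceptor fate, had 1.01 and 1.33, 16.1 and 12.3, and 15.2, 16.8 and 22.7 RPKM. Prdm1, a repressor that favours photoreceptor over bipolar fate, had 1.35 and 0, 2.68 and 14.1, and 15.6, 16.3 and 21.6 RPKM. For Thrb and Prdm1 the P10 values lay below all P28 values, and for Otx2 they overlapped.

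The list of photoreceptor cilium and ciliopathy genes gave 16 peaks of 9 genes. Arl3, a small GTPase that releases lipidated cargo in the cilium, had 0.348 and 1.37 RPKM at P4, 8.29 and 13.3 at P10 and 23.7, 31.0 and 34.0 at P28 (chr19:46563050-46564356, intron 1). Fam161a encodes a microtubule-associated protein of the connecting cilium, and its first intron held 3 selected peaks within 4449 bases of the start site. The highest had 2.37 and 1.56, 23.6 and 14.4, and 28.1, 22.8 and 31.1 RPKM. Tub, the tubby gene, had 5 peaks with P28 means from 15.03 to 24.2 RPKM, and its highest had 2.09 and 2.19, 13.3 and 18.8, and 21.5, 24.3 and 26.99 RPKM. At the highest peak of each of these 3 genes both P10 values lay above both P4 values. Further genes of this list were Ttc8 with 2 peaks and Cerkl, Poc1b, Ttll5 and Arl13b with 1 each, and their P28 means ran from 13.3 RPKM (Ttll5) to 21.9 RPKM (Ttc8).

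Of ribbon synapse genes, Unc13b, Elfn1 and Stx3 had 1 selected peak each, of 24 genes with an intron or distal intergenic peak. Unc13b primes synaptic vesicles, and its peak in intron 1 (chr4:43082097-43082443) had 1.31 and 0 RPKM at P4, 0 and 13.6 at P10 and 18.1, 29.4 and 39.3 at P28. The P10 libraries held 0 and 6 reads there. Elfn1, which links rods to bipolar cells, had 0 and 1.51, 11.4 and 8.99, and 17.0, 18.5 and 15.8 RPKM. Stx3, the syntaxin of ribbon synapses, had 1.09 and 0, 12.9 and 9.42, and 12.9, 17.9 and 23.9 RPKM.

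The other gene lists contributed 8 of the 1298 peaks. The bipolar list made up 0.308% of the selected and 0.151% of all intron and distal intergenic peaks. The glycolysis, amacrine and horizontal, Müller glia, and astrocyte and vessel lists had 1 selected peak each (0.0770%), beside 0.0617%, 0.104%, 0.127% and 0.0556% of all, so these single peaks are values and not a result about their lists. Prkca, which marks rod bipolar cells, had 4, all in introns. The one 1585 bases into the gene had 0 and 0 RPKM at P4, 0 and 4.45 at P10 and 17.8, 17.4 and 22.4 at P28. The next had 0.356 and 1.40, 2.83 and 7.41, and 16.6, 16.7 and 21.2 RPKM, and another 2.11 and 2.22, 10.1 and 20.53, and 12.1, 17.9 and 22.3 RPKM. Hk1, hexokinase 1 of glycolysis, had 0.333 and 1.31, 10.6 and 8.09, and 13.7, 20.6 and 22.0 RPKM in intron 3. Slc6a9, the glycine transporter of amacrine cells, had 0 and 1.15, 3.48 and 18.2, and 17.2, 19.1 and 24.3 RPKM. Nfix, a factor of Müller glia and late progenitors, had 1.28 and 1.97, 9.35 and 14.1, and 19.9, 18.5 and 18.9 RPKM, and Pax2, an astrocyte factor in the retina, had 0.658 and 0.864, 14.4 and 13.7, and 14.0, 18.2 and 20.9 RPKM. None of 11 ganglion cell genes, with 78 such peaks, and none of 14 progenitor and cell cycle genes, with 42, was nearest to a selected one, which at the same 1.60% is likewise no result about them.

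The promoter peaks of the same genes were not used by the rule and were read for P28 against P4 in the same libraries. Some lie next to a selected peak, so the promoter counts are not independent of the selection. At Guca1a the selected peak ended at chr17:47399855 and the promoter peak began at chr17:47400143. At Fam161a the promoter peak ended at chr11:23008681 and a selected peak began at chr11:23009242. Of the 937 nearest genes, 733 had a promoter peak and 204 had none, and the 733 had 1157 promoter peaks in all. In limma 748 of these (64.7%) were higher at P28 at a Benjamini-Hochberg adjusted p under 0.01 and 0 were lower, against 31.3% higher of all 17144 promoter peaks. With only the promoter peak nearest the start site, 501 of 733 (68.3%) were higher. With the libraries scaled to reads in peaks, 323 of the 1157 were higher and 3 were lower, beside 1453 higher and 969 lower of all 17144. As deposited, the count of 748 fell to 366 without P4 replicate 1 and to 390 without P4 replicate 2, beside 1646 and 1795 higher of all 17144. These are the same libraries whose levels helped choose the peaks.

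Of the 26 list genes with a selected peak and a promoter peak, 22 had a nearest promoter peak that was higher at P28. The share was 68.3% over the nearest promoter peaks of all genes with a selected peak, and 31.3% over all promoter peaks. Fam161a had 0.361 and 0.949 RPKM at P4 and 13.4, 15.5 and 16.2 at P28 at its promoter, a log2 change of 3.29 ± 0.30 (SE) with a limma adjusted p of 0.000137. Prph2 had 0.703 and 1.48 RPKM at P4 and 12.9, 13.9 and 16.4 at P28, a log2 change of 2.90 ± 0.31 (SE) with a limma adjusted p of 0.00022. Guca1a had 0.818 and 2.69 RPKM at P4 and 20.1, 21.0 and 25.96 at P28, and its 2 P10 values of 4.87 and 3.55 RPKM lay far below P28. Tulp1 was among the 4 that were not called, with 2.40 and 1.58 RPKM at P4 and 3.47, 6.67 and 6.85 at P28 and a limma adjusted p of 0.0305. Its P10 values of 14.3 and 12.5 RPKM lay above every P28 value. The other 3 were Arl13b, Esrrb and Unc13b, with limma adjusted p-values of 0.0135, 0.0132 and 0.0109.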

How the data were processed

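H3K18La CUT&Tag was measured in 7 libraries of mouse retina. The authors mapped reads to GRCm38 with nf-core/cutandrun, called MACS peaks, merged peaks found in 2 or more replicates at 1 age and annotated them with ChIPseeker 1.34.1. They counted reads per peak with csaw, and the deposited values are RPKM, read counts scaled to peak width and to a library size normalized on large windows. RPKM times peak width was a whole multiple of 1 step per library for 100% of values (tolerance 0.05 of a step), which gave the reads per peak. Reads in peaks ranged from 199970 to 8274373 per library. They carry no molecular identifiers, so read floors (3 reads) cover counting error only. The authors' own table of fold changes and FDR values was not used.

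Groups came from the labels. Peaks were compared with limma 3.58.1 in R 4.3.3 with its trend option, on log2 of RPKM plus a pseudocount of 1, over all 108253 peaks and all 7 libraries without covariates, in place of the study's count model because the deposited unit is RPKM. Peaks with an adjusted p under 0.01 were called. The script was tested on simulated data first. Windows were read from the GRCm38.p6 genome, in which no peak lay past a chromosome end. Named peaks are the 10 highest at P28, the 5 highest and 5 lowest at P10, the 12 highest of the photoreceptor lists, 3 of each other list, genes with 3 or more peaks (those with 5 or more printed) and 3 peaks on each side of each threshold. Photoreceptor-list peaks beyond the 12 were added after their values were seen. The selected peaks and the gene lists were chosen with earlier results of these data known. Sequences on chromosome 18 entered the motif shares and are not printed, and 1 of the 12 photoreceptor-list peaks and the sequence of another are not reported here.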

Additional observations from a re-analysis of the deposited data

How the results depend on the processing

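Thresholds, scaling, pseudocount, filters, the count model, a replicate block and each library in turn were varied. A P28 minimum of 10 or 15 RPKM gave 2010 or 673 peaks, scaling to reads in peaks 189, and leaving out 1 P4 or P28 library 1304 to 2219. For P10 against P4, scaling to reads in peaks gave 649 calls among the selected peaks and leaving out 1 library 460 to 1150, while over all peaks the count of 20264 became 11952 with a mean of at least 1 RPKM and 5463 to 20992 without 1 library. For P28 against P10, the 2 calls over all peaks and 1 among the selected peaks became 0 and 0 with a pseudocount of 0.5, 1625 and 129 with a pseudocount of 2, 50 and 3 scaled to reads in peaks, 2344 and 122 with median centring, and 8940 and 223 by voom. Leaving out 1 library gave 0 to 16507 over all peaks and 0 to 428 among the selected peaks. Same-numbered libraries did not deviate together (r of 0.0393 between P4 and P10, 0.0469 and 0.0229 between P10 and P28, and about 0 between P4 and P28), so the main model has no replicate block. As an alternative, the replicate block gave 0 calls over all peaks and 0 among the selected peaks for P28 against P10 (3 selected peaks at an adjusted p under 0.05), and 995 among the selected peaks for P10 against P4. This block also takes P28 replicate 3 out of the comparison of ages, because no other age has a replicate 3. The promoter peaks called were 366 to 926 without 1 library. The P10 position was 49.19% without the log and 66.24% to 80.66% without 1 library. TAATCC was in 18.18% of the selected peaks in 200 bases, and in 20.8% outside soft-masked bases. In 200 bases it was in 14.3% of the 1801 peaks also high at P28 and in 8.62% of all intron and distal intergenic peaks. The cause of these shifts was not tested. Depth limits the P4 and P10 libraries more than those at P28.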

Other observations

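Peaks of other annotation classes that met the same thresholds were counted for comparison. Of 17144 promoter peaks 464 (2.71%) did so, of 6560 exon peaks 118 (1.80%), of 598 peaks in a 5' UTR 17 (2.84%), of 2803 peaks in a 3' UTR 66 (2.35%), of 171 peaks downstream of a gene 4 (2.34%), of 45481 intron peaks 881 (1.94%) and of 35496 distal intergenic peaks 417 (1.17%). The selected peaks were unevenly spread over chromosomes. Chromosome 11 held 101 of its 4319 intron and distal intergenic peaks (2.34%), chromosome 3 held 39 of 4254 (0.917%), and the X chromosome held 4 of 1155 (0.346%). These shares were not tested.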
